A study of Mus musculus with 8 samples.

Results

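The synaptonemal complex and meiotic cohesin genes described here were 10 listed genes: *Sycp2* and *Sycp3* of the lateral elements, *Sycp1* of the transverse filaments, *Syce1*, *Syce2* and *Tex12* of the central element, and *Smc1b*, *Rec8*, *Rad21l* and *Stag3* of the meiotic cohesin complexes. They were chosen by name, through the gene symbol or current alias that the array annotation gives to a probe set. No value was part of this rule, although earlier results of these data were known when the list was made. Of the 10 genes, 9 had a probe set, 1 each, among the 45037 probe sets tested, which named 18193 genes. *Rad21l* was linked to no probe set by the annotation used and was not analysed here.

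RNA was measured on 8 Affymetrix mouse genome arrays, 2 for each of 4 groups: *Hr6b* knockout (*Hr6b*-/-) round spermatids, wild type (*Hr6b*+/+) round spermatids, *Hr6b* knockout late spermatocytes and wild type late spermatocytes. All mice were males of 4 to 5 weeks on the FVB background, and no other allele or agent is named for any group. *Hr6b* encodes a ubiquitin-conjugating enzyme that is lost from the whole body of the knockout, so the germ cells and the somatic cells of the testis both lack it. Knockout males had *Hr6b*-/- mothers and wild type males had *Hr6b*+/+ mothers, so the genotype of the male and of its mother cannot be told apart. Cells were separated by sedimentation at unit gravity and then on Percoll, and the number of mice behind an array is not given in the sources used here. The methods call the arrays of a cell type replicate experiments, and captions of the study speak of batches of cells, but no source says which array came from which batch or whether the mice of a pair of arrays were separate. P-values therefore reflect only how far these arrays differ within groups, which may be technical spread.

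During meiotic prophase each chromosome folds its sister chromatids along a protein axis, and the synaptonemal complex joins the axes of paired homologous chromosomes along their length. SYCP2 and SYCP3 form the lateral elements, SYCP1 spans the gap between them as transverse filaments, and SYCE1, SYCE2 and TEX12 hold the filaments together in the central element. Cohesin rings with the meiosis-specific subunits SMC1B, REC8, RAD21L and STAG3 keep sister chromatids together and serve as the base on which the axis is built. The complex is assembled as the homologous chromosomes pair, from zygotene to pachytene, is taken apart in diplotene, and is absent from the haploid round spermatid.

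The start regions of the members are shown for those called in both genotypes with the largest differences in each direction between the cell types, *Rec8* and *Syce2*, which were higher in spermatids, and *Tex12* and *Sycp2*, which were lower. Each sequence is the 250 bases before an annotated start of the gene, in RefSeq annotation of mouse build GRCm38.p6, 5′ to 3′ on the strand of the gene: *Rec8* at chr14:55617916-55618165 (plus strand), *Syce2* at chr8:84871861-84872110 (plus strand), *Tex12* at chr9:50561269-50561518 (minus strand) and *Sycp2* at chr2:178407659-178407908 (minus strand). Capitals mark a match, on either strand, to one of 3 motifs, the CRE half-site TGACG, the E2F core TCCCGC and the motif CNCCTCAG known for the meiotic inducers MEIOSIN and STRA8.
Rec8: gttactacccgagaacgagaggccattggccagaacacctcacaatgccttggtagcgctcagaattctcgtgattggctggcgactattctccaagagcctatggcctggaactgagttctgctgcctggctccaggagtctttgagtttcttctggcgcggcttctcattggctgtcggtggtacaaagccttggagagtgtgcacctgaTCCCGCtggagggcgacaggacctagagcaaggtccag
Syce2: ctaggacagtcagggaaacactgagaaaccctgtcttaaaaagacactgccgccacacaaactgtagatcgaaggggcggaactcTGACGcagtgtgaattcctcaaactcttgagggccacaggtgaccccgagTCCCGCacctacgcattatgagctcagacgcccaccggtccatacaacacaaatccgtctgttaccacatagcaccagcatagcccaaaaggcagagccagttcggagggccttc
Tex12: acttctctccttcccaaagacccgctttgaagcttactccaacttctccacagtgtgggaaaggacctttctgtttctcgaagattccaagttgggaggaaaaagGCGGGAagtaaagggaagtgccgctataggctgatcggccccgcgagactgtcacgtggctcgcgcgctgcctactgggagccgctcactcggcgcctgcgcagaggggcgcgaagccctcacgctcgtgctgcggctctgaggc
Sycp2: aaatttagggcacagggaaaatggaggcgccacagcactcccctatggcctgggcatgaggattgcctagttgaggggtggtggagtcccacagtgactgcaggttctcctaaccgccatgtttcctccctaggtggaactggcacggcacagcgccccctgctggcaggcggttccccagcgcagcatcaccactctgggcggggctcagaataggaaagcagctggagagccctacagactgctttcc
The E2F core was present before 5 of the 10 genes (*Sycp3*, *Syce2*, *Tex12*, *Smc1b* and *Rec8*), in 6 of their 11 windows. Over all genes it was present in 16.9% of the 32851 windows of this length. The CRE half-site was present before *Syce1* and *Syce2*, in 2 of the 11 windows, and in 17.8% of all windows. The MEIOSIN and STRA8 motif was present only before a downstream start of *Syce2*, where it overlaps an E2F core, and in 6.4% of all windows. The E2F core therefore stood in the windows of genes that were higher in spermatids (*Rec8*, *Syce2*) as well as of genes that were lower there (*Tex12*, *Sycp3*), and the windows of *Sycp2* held none of the 3 motifs. A match is a description of letters and was not tested as a binding site.

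Values are given as signal, which is 2 to the power of the deposited log2 value, and each fold change is between group means on the log2 scale. Gene positions are those of RefSeq on GRCm38.p6. A probe set was called higher or lower where the p-value of limma's moderated test, adjusted by the Benjamini-Hochberg method over all 45037 probe sets, was under 0.05. The arrays of a group correlated with r of 0.995 to 0.997, and 33.2% to 35.4% of the probe sets reached a signal of 100 on an array. The transcript of the targeted gene (listed as *Ube2b*, the current symbol of *Hr6b*) had signals of 951 and 1061 in knockout spermatids, against 4599.5 and 4612 in wild type spermatids, and of 833 and 824 in knockout spermatocytes, against 2855 and 3349 in wild type spermatocytes. Whether its probes lie in the deleted part of the gene was not checked. Since the RNA came from bulk cell fractions, fewer cells of a type and less RNA per cell cannot be told apart in any value below.

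Between the cell types, the members moved in both directions and by very different amounts. In wild type, 2 of the 9 measured members were higher in spermatids than in spermatocytes, 4 were lower and 3 were not called. Over all probe sets 26% were called higher and 27.3% lower in this comparison, 53.3% in all, and 82.5% among the 17597 expressed probe sets (a signal of 100 or more on at least 4 arrays). In knockout cells 2 members were higher, 5 were lower and 2 were not called, against 34.2% of all probe sets called higher and 28.7% lower, 63% in all and 85.6% of the expressed ones. All 9 measured members counted as expressed, *Rec8* through its 4 spermatid arrays alone. Within a genotype, the 2 spermatid arrays did not overlap the 2 spermatocyte arrays for 8 of the 9 members in wild type and for 9 of 9 in knockout, where 77.9% and 83.3% of all probe sets did not overlap. Shares of non-overlap, and of an unadjusted p under 0.05 further on, were not computed for the expressed probe sets alone. The median log2 difference of the members was −0.21 in wild type and −0.54 in knockout, beside medians of 0.096 and 0.14 over all probe sets. The median log2 level of the 15485 expressed autosomal probe sets differed between spermatids and spermatocytes by −0.37 in wild type and −0.61 in knockout. This shift is a difference between median levels and not a median of differences. A difference below is also given relative to that shift where its direction turns on it.

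**Figure D1:**
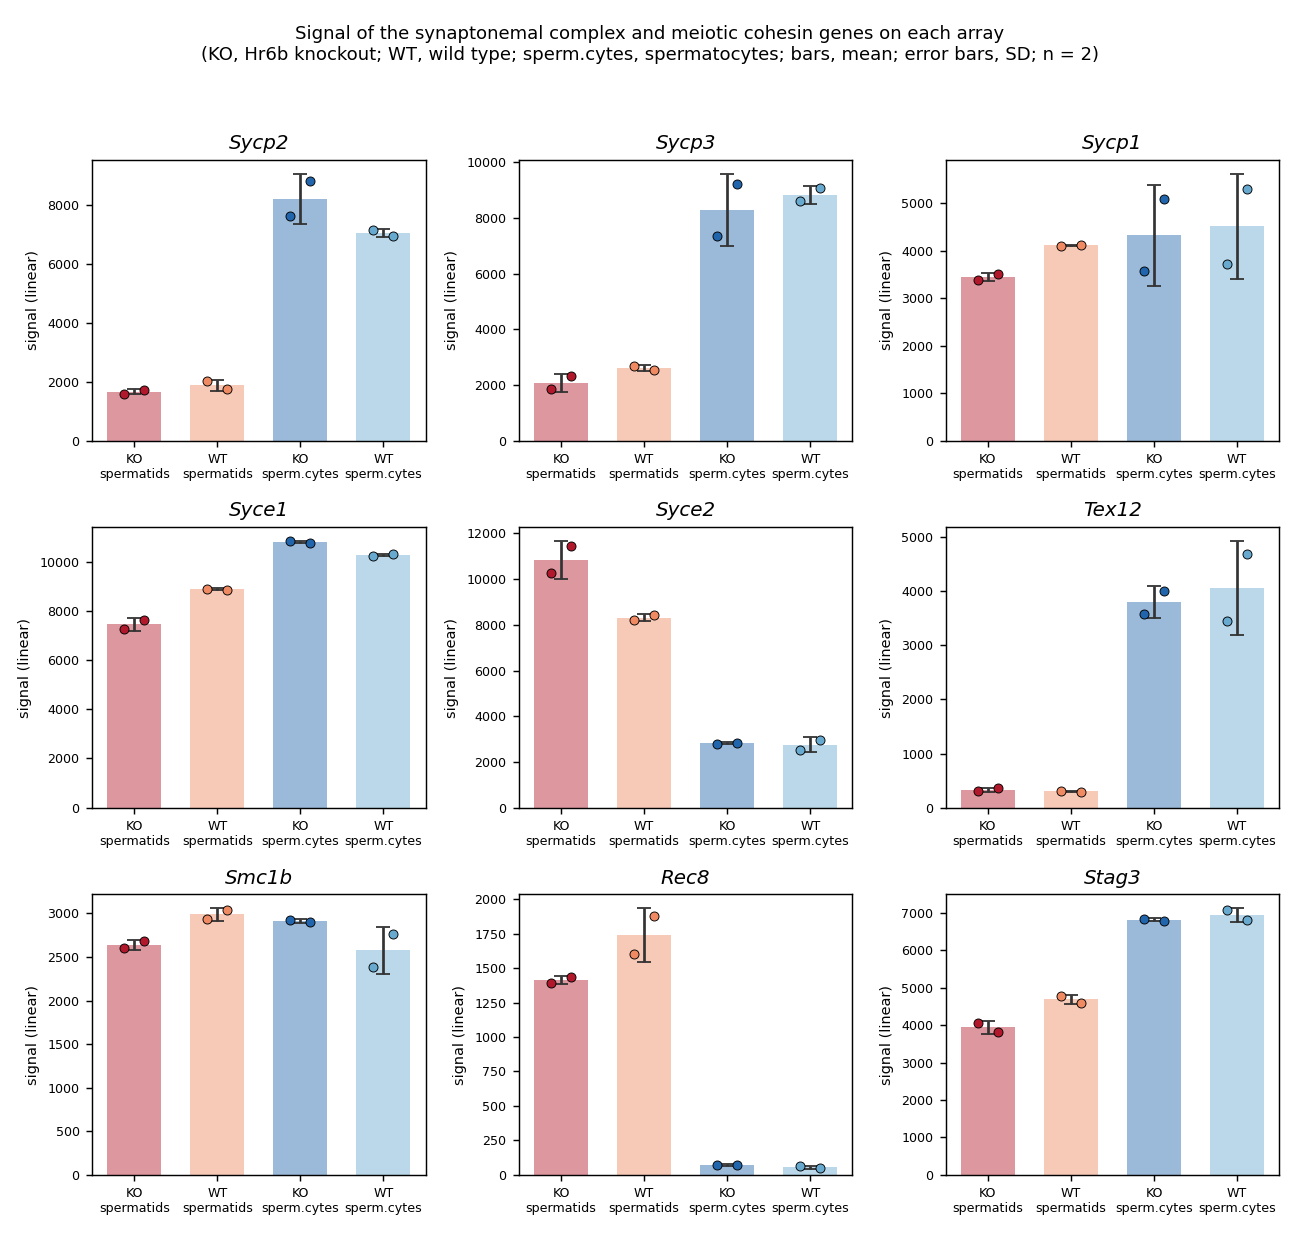
Signal (linear scale, from 0) of the 9 measured genes on each array, in *Hr6b* knockout (KO) and wild type (WT) spermatids and spermatocytes, where each point is 1 array, the bar is the mean of its group and the whisker its SD (n = 2). *Rec8* and *Syce2* stand high in both spermatid groups, *Tex12*, *Sycp2* and *Sycp3* stand high in both spermatocyte groups, and *Sycp1* and *Smc1b* have similar bars in all 4 groups.

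Both lateral element genes were lower in spermatids. *Sycp2* (chr2:178345295-178407776, probe set 1444122_at), whose product is a partner of SYCP3 in the lateral element, had signals of 1598 and 1729.8 in knockout spermatids, 2013 and 1740.1 in wild type spermatids, 7621 and 8826 in knockout spermatocytes, and 6951 and 7147 in wild type spermatocytes. All 4 spermatid arrays lay far below all 4 spermatocyte arrays, and neither the spermatid nor the spermatocyte arrays of the genotypes overlapped. The log2 difference between spermatids and spermatocytes was −2.30 ± 0.13 (SE) in knockout (adjusted p = 8.95e-08) and −1.91 ± 0.13 in wild type (adjusted p = 3.95e-07), so that wild type spermatids held 26.6% of the wild type spermatocyte level.

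*Sycp3* (chr10:88459587-88473236, probe set 1449534_at), which encodes the main structural protein of the lateral element, had signals of 1858.5 and 2307 in knockout spermatids and of 2535 and 2698 in wild type spermatids. In spermatocytes the signals were 7369 and 9214 in knockout and 8596 and 9065 in wild type. The spermatocyte arrays of the genotypes overlapped, and the cell types were again far apart. The log2 difference between the cell types was −1.99 ± 0.15 (SE) in knockout (adjusted p = 8.26e-07) and −1.76 ± 0.15 in wild type (adjusted p = 2.50e-06), a 3.98-fold and a 3.38-fold lower level.

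*Sycp1* (chr3:102818499-102936100, probe set 1427291_at), the transverse filament gene, was the member with the widest spread between arrays of a group. Its signals were 3377 and 3499.9 in knockout spermatids, 4105 and 4116 in wild type spermatids, 3564.5 and 5075 in knockout spermatocytes, and 3726 and 5293 in wild type spermatocytes. In both genotypes one spermatocyte array was 1.42-fold above the other, and the wild type spermatids lay between the wild type spermatocyte arrays. The log2 difference between the cell types was −0.31 (95% interval −0.74 to 0.12, adjusted p = 0.189) in knockout and −0.11 (−0.54 to 0.32, adjusted p = 0.652) in wild type. Relative to the shift of the expressed autosomal probe sets the same differences were 0.30 and 0.26, so the direction for this gene turns with the scaling of the arrays.

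The 3 central element genes differed from each other. *Tex12* (chr9:50557148-50561268, probe set 1421183_at), whose product extends the central element along the axes together with SYCE2, had signals of 306 and 361 in knockout spermatids, 297 and 306 in wild type spermatids, 3584 and 4002 in knockout spermatocytes, and 3446 and 4675 in wild type spermatocytes. All spermatid arrays were low, and the genotypes overlapped in both cell types. The level in spermatids was 11.4-fold lower in knockout (log2 difference −3.51 ± 0.16 SE, adjusted p = 2.31e-08) and 13.3-fold lower in wild type (−3.74 ± 0.16, adjusted p = 1.54e-08).

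*Syce2* (chr8:84872111-84887446, probe set 1429270_a_at) moved the other way. It had signals of 10259 and 11435 in knockout spermatids, 8207.5 and 8409.8 in wild type spermatids, 2789 and 2849.7 in knockout spermatocytes, and 2540.4 and 2980.3 in wild type spermatocytes. The highest signals were those of knockout spermatids and the spermatocyte arrays of the genotypes overlapped. The level in spermatids was 3.84-fold higher in knockout (log2 difference 1.94 ± 0.12 SE, adjusted p = 2.35e-07) and 3.02-fold higher in wild type (1.59 ± 0.12, adjusted p = 1.21e-06). The products of *Syce2* and *Tex12* are known to bind each other.

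*Syce1* (chr7:140777229-140787854, probe set 1428685_at), whose product binds SYCP1 in the central element, had signals of 7260.5 and 7637 in knockout spermatids, 8860.1 and 8900.3 in wild type spermatids, 10756 and 10831 in knockout spermatocytes, and 10236 and 10289 in wild type spermatocytes. The 4 groups did not overlap, and knockout spermatids were the lowest of them. *Syce1* was lower in knockout spermatids than in knockout spermatocytes (log2 difference −0.54 ± 0.11 SE, adjusted p = 0.00135), and in wild type the difference was −0.21 (95% interval −0.45 to 0.028, adjusted p = 0.124). Relative to the shift of the expressed autosomal probe sets these differences were 0.070 and 0.16, so the call in knockout rests on the scaling of the arrays.

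The cohesin genes also moved in different directions. *Rec8* (chr14:55618002-55625395, probe set 1419147_at), whose product is the meiotic kleisin that closes the cohesin ring, had signals of 1393 and 1434 in knockout spermatids and of 1599 and 1880.1 in wild type spermatids. It had 68.1 and 74.5 in knockout spermatocytes and 46.6 and 63.3 in wild type spermatocytes, and was the only member under a signal of 100 on any array. All 4 spermatid arrays lay far above all 4 spermatocyte arrays. The level in spermatids was 19.8-fold higher in knockout (log2 difference 4.31 ± 0.16 SE, adjusted p = 7.11e-09) and 31.9-fold higher in wild type (5.00 ± 0.16, adjusted p = 2.71e-09). How much of the low spermatocyte signals is array background was not tested, and the position of the probes in the transcript was not analysed here.

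*Stag3* (chr5:138272514-138312397, probe set 1460229_at), which encodes the meiotic cohesin subunit that binds the kleisin, had signals of 4065 and 3822 in knockout spermatids, 4777 and 4595 in wild type spermatids, 6844 and 6789.9 in knockout spermatocytes, and 7083 and 6822 in wild type spermatocytes. The spermatocyte arrays of the genotypes overlapped and the spermatid arrays did not. It was lower in spermatids by 0.79 ± 0.11 (SE) on the log2 scale in knockout (adjusted p = 9.85e-05) and by 0.57 ± 0.11 in wild type (adjusted p = 0.00114). Relative to the shift of the expressed autosomal probe sets the differences were −0.19 and −0.20, and neither was called when the arrays were brought to equal medians of those probe sets.

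*Smc1b* (chr15:85064689-85131957, probe set 1449253_at), which encodes the meiotic SMC1 subunit, had the smallest range of all members. Its signals were 2598 and 2679 in knockout spermatids, 2933 and 3042 in wild type spermatids, 2927 and 2898 in knockout spermatocytes, and 2387 and 2764 in wild type spermatocytes. Knockout spermatids lay between the wild type spermatocyte arrays, and wild type spermatids were the highest group by a small margin. The log2 difference between spermatids and spermatocytes was −0.14 (95% interval −0.40 to 0.12, adjusted p = 0.304) in knockout and 0.22 (−0.041 to 0.48, adjusted p = 0.141) in wild type. Relative to the shift they were 0.46 and 0.59, and with equal medians the gene was called higher in spermatids in both genotypes, with log2 differences of 0.46 in knockout (adjusted p = 0.00316) and 0.59 in wild type (adjusted p = 0.00108).

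**Figure D2:**
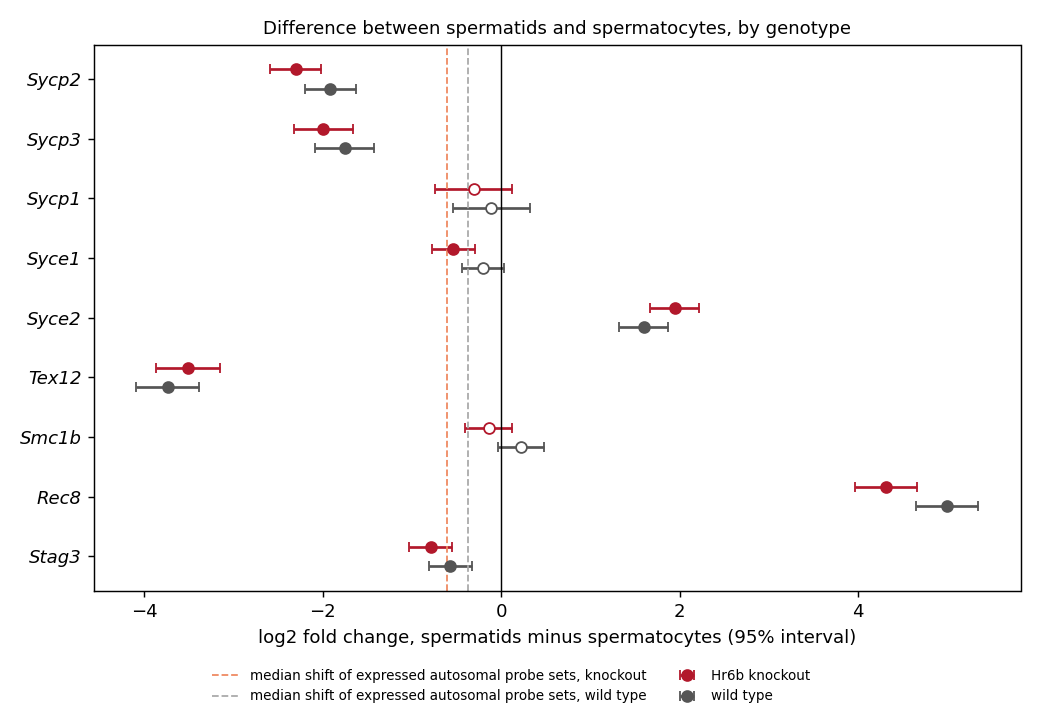
Log2 fold change of the 9 measured genes, spermatids minus spermatocytes, with 95% intervals, in *Hr6b* knockout and wild type, where filled points were called at an adjusted p under 0.05, and dashed lines give the difference in the median level of the expressed autosomal probe sets. *Rec8* and *Syce2* lie to the right in both genotypes, and *Tex12*, *Sycp2* and *Sycp3* lie far to the left. The other 4 genes lie nearer the dashed lines, with *Smc1b* the farthest to the right of them among these 4.

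The purity of the fractions was read from marker lists. All 11 spermatid markers were higher in spermatids in both genotypes, with a summed signal of 178770 to 181170 in knockout spermatids and 154720 to 156000 in wild type spermatids, against 25355 to 34357 in knockout spermatocytes and 7646.1 to 10822 in wild type spermatocytes. Of the 10 spermatocyte markers, 5 were lower and 5 higher in wild type spermatids than in wild type spermatocytes, with summed signals of 44579 to 45596 in knockout spermatids and 52264 to 54141 in wild type spermatids, against 50676 to 51239 in knockout spermatocytes and 50969 to 53486 in wild type spermatocytes, so the sum of this list did not separate the cell types in wild type. *Piwil1*, one of the 5 lower markers, was at 657 to 698 in knockout spermatids and 768 to 785 in wild type spermatids, against 7611 to 8133 in knockout spermatocytes and 8387.5 to 8575 in wild type spermatocytes. *Spag6*, one of the 5 higher markers, was at 5600.5 to 5954 in wild type spermatids and 63.3 to 113 in wild type spermatocytes. Of the 9 Sertoli cell markers, 6 were lower in wild type spermatids than in wild type spermatocytes, with summed signals of 897 to 977 in knockout spermatids and 613 to 709.8 in wild type spermatids, against 3068 to 3862 in knockout spermatocytes and 2869 to 3544 in wild type spermatocytes. In knockout, 5 of the Sertoli markers were lower in spermatids and 2 were higher. The Sertoli marker *Clu* alone had 2102 to 2668 in wild type spermatocytes. Of the 5 peritubular and macrophage markers, 3 were higher in wild type spermatids and 4 in knockout spermatids. Their sums were 595 to 662 in knockout and 493 to 511 in wild type spermatids, against 305.5 to 322 in knockout and 333 to 348 in wild type spermatocytes. The part of these lists in the differences of the members was not tested.

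The knockout left no member called in spermatids. The question of this comparison was whether loss of *Hr6b* changed transcript levels after meiosis, and 14.5% of all probe sets were called (4.83% higher and 9.63% lower), and 26.9% of the expressed ones. By limma 0 of the 9 members passed, while 4 had an unadjusted p under 0.05 (*Sycp3*, *Syce1*, *Syce2* and *Stag3*), against 28.2% of all probe sets. The log2 difference between knockout and wild type was negative for 7 members and positive for 2, and the arrays of the genotypes did not overlap for 8 of the 9, against 55.5% of all probe sets. All 9 members count as expressed, and the shares beside the 28.2% and 55.5% were not computed for expressed probe sets alone. The median difference of the members was −0.25, and that over all probe sets was 0.021. The median level of the expressed autosomal probe sets differed by −0.21 between knockout and wild type spermatids, a difference of medians. Relative to the −0.21, 4 members were positive and 5 negative.

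*Syce2* had the largest difference in knockout spermatids, with signals of 10259 and 11435 against 8207.5 and 8409.8 in wild type spermatids. This was 1.30-fold (95% interval 1.08 to 1.58), a log2 difference of 0.38 with an unadjusted p of 0.0110 and an adjusted p of 0.0662 in limma's test. The adjusted p was 0.00895 with equal medians of expressed autosomal probe sets, and it lay under 0.05 as well under 3 of the other settings tried, so the side of the threshold on which *Syce2* falls depends on the processing. The lateral element gene *Sycp3* had a log2 difference of −0.34 (95% interval −0.67 to −0.0068, adjusted p = 0.169), *Rec8* of −0.30 (−0.64 to 0.054, adjusted p = 0.256) and *Stag3* of −0.25 (−0.49 to −0.0084, adjusted p = 0.163). The remaining differences in spermatids were −0.26 for *Sycp1*, −0.25 for *Syce1*, −0.18 for *Smc1b*, −0.17 for *Sycp2* and 0.14 for *Tex12*. No 95% interval of a member reached a change of 2-fold, or 1 on the log2 scale, in spermatids.

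In the same comparison 3 of the 10 spermatocyte markers were lower in knockout spermatids, with summed signals of 44579 to 45596 against 52264 to 54141 in wild type spermatids. The largest decrease was that of *Ccna1*, at 2625 to 2629 in knockout and 3885 to 4123 in wild type spermatids. *Ccna1* had only 522 to 976 in wild type spermatocytes. It is among the 5 of the 10 markers that were higher in wild type spermatids, so this list does not measure spermatocytes alone. Of the 9 Sertoli cell markers 3 were higher in knockout spermatids (sums of 897 to 977 in knockout and 613 to 709.8 in wild type spermatids), and 2 of the 9 markers of spermatogonia and preleptotene cells were higher. Several of these markers had low signals. *Sohlh1* had 51.0 to 55.0 in knockout and 22.65 to 27.7 in wild type spermatids, and *Cldn11* had 21.4 to 26.8 and 10.4 to 11.3. How much of such signals is array background was not tested. The part of these marker lists in the values of the members was not tested.

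In late spermatocytes the knockout left 0 of the 9 members called by limma, where 1.59% of all probe sets were called (1.18% higher and 0.413% lower) and 3.3% of the expressed ones. Spermatocytes of the stages at which the complex is first built were not sampled as a separate fraction. *Rec8* was the 1 member with an unadjusted p under 0.05, against 11% of all probe sets. Differences were positive for 5 members and negative for 4, the arrays of the genotypes did not overlap for 4 members (41.4% of all probe sets), and the median was 0.035 beside −0.0083 over all probe sets. *Rec8* had signals of 68.1 and 74.5 in knockout spermatocytes and 46.6 and 63.3 in wild type spermatocytes, a log2 difference of 0.39 (95% interval 0.041 to 0.74, adjusted p = 0.371) between low signals. *Sycp2* differed by 0.22 (−0.066 to 0.50, adjusted p = 0.616), *Smc1b* by 0.18 (−0.078 to 0.44, adjusted p = 0.665), and the other 6 members by −0.099 to 0.073. The intervals of these 6 reached at most from −0.49 to 0.37 on the log2 scale, both ends from *Sycp1*.

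Spermatid markers were among the genes that did move in knockout spermatocytes. Of the 11 markers 5 were called higher (*Tnp1*, *Tnp2*, *Prm1*, *Prm2* and *Odf1*, which package the sperm nucleus or build the tail), all 11 had a positive difference, and their summed signal was 25355 to 34357 in knockout and 7646.1 to 10822 in wild type spermatocytes. Of the 9 markers of spermatogonia and preleptotene cells 2 were lower in knockout spermatocytes (sums of 4325 to 5047 in knockout and 4701 to 6826 in wild type). *Dazl* alone had 3800.5 to 4447 in knockout and 4010 to 6080 in wild type spermatocytes, so it made up most of these sums. Of the 10 spermatocyte markers 1 was higher, *Spag6*, at 181 to 193 in knockout and 63.3 to 113 in wild type spermatocytes. *Spag6* was itself higher in wild type spermatids, at 5600.5 to 5954. *Rec8* and *Syce2* are the members with the higher level in spermatids, and the part of any of these markers in their values was not tested. *Syce2* had 2789 and 2849.7 in knockout spermatocytes and 2540.4 and 2980.3 in wild type spermatocytes, which overlapped.

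**Figure D3:**
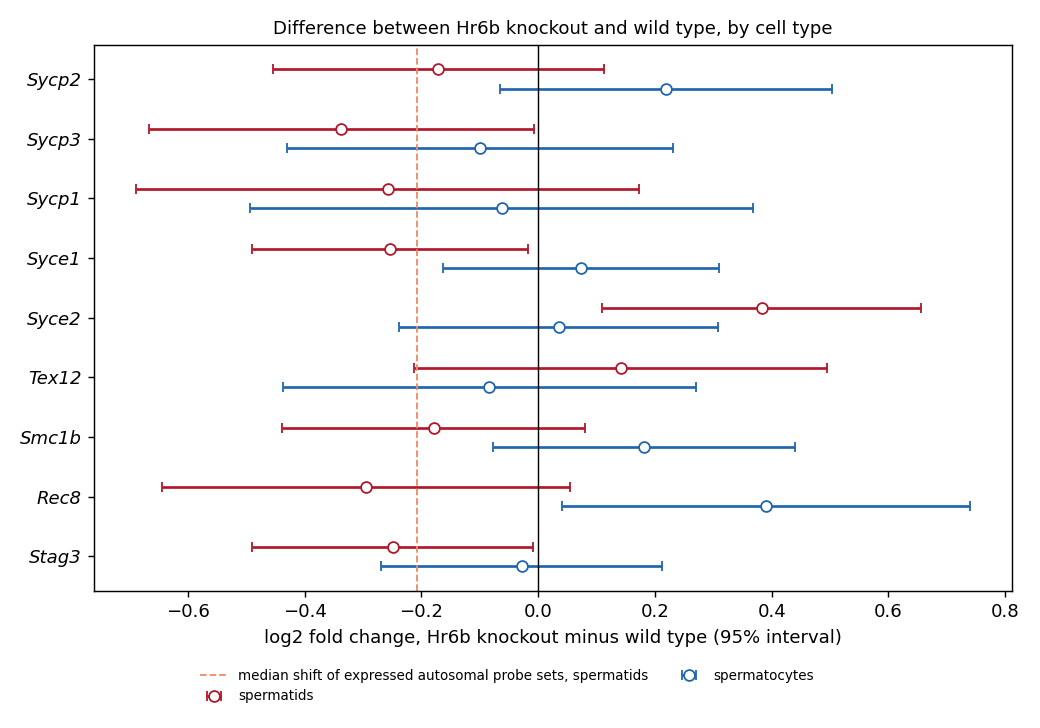
Log2 fold change of the 9 measured genes, *Hr6b* knockout minus wild type, with 95% intervals, in spermatids and in spermatocytes, where open points were not called, and the dashed line marks the difference in the median level of the expressed autosomal probe sets in spermatids. All points are open, 7 of the 9 spermatid points lie left of 0 around the dashed line at −0.21, and *Syce2* lies farthest to the right in spermatids.

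The knockout effect in spermatids was set against that in spermatocytes by an interaction term. By limma 0 of the 9 members were called, where 4.6% of all probe sets (1.46% higher and 3.14% lower) and 8.35% of the expressed ones were, and 1 member (*Rec8*) had an unadjusted p under 0.05, against 22.1% of all probe sets. *Rec8* had the largest difference between the effects, −0.69 (95% interval −1.18 to −0.19, adjusted p = 0.108), since its knockout difference was −0.30 in spermatids and 0.39 in spermatocytes. *Syce2* was at 0.35 (−0.039 to 0.73, adjusted p = 0.275), *Sycp2* at −0.39 (adjusted p = 0.240), *Smc1b* at −0.36 (adjusted p = 0.233) and *Syce1* at −0.33 (adjusted p = 0.236). For the median level of the expressed autosomal probe sets the same term was −0.23.

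The pattern over the 8 arrays was described by the mean of the 9 members, each centred on its own mean log2 value. This mean profile was lowest in knockout spermatids (−0.25 and −0.15) and next in wild type spermatids (−0.061 and −0.070), and lay at 0.11 and 0.23 in knockout spermatocytes and 0.047 and 0.15 in wild type spermatocytes. The spermatocyte arrays of the genotypes overlapped and the spermatid arrays did not. Pearson's r with the profile was 0.95 for *Syce1*, 0.93 for *Sycp3*, 0.92 for *Sycp2*, 0.91 for *Stag3*, 0.89 for *Tex12*, 0.73 for *Sycp1* and 0.22 for *Smc1b*, and it was −0.86 for *Rec8* and −0.89 for *Syce2*, so the mean hides opposed genes. Among 15751 candidate probe sets with adequate signal, those most like the profile were *Brix1* (r = 0.9932), *Tsr3* (0.9900), *Zfp280d* (0.9849), *Wsb1* (0.9834) and *Trpm7* (0.9822), each over the same 8 arrays in 4 groups.

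Other genes of the axis, of synapsis and of cohesin were read from a list of 41 genes, of which 36 had a probe set. In wild type 10 were higher in spermatids, 21 were lower and 5 were not called, with a median log2 difference of −0.63, and in knockout 9 were higher, 18 were lower and 9 were not called, with a median of −0.47. The shares over all probe sets were the 53.3% and 63% given above, and 82.5% and 85.6% of the expressed ones. With equal medians of the expressed autosomal probe sets the list had 15 higher and 18 lower in wild type, and 17 higher and 17 lower in knockout. With cyclic loess it had 12 higher and 19 lower in wild type, and 11 higher and 17 lower in knockout. The balance between the directions therefore moved with equal medians and little with cyclic loess. Equal medians also called genes of very low signal higher in both genotypes, such as *Mei4* (group means of 8.6 to 9.0, picked after its values were seen). The genes that attach meiotic telomeres to the nuclear envelope had 5 of 5 measured genes lower in wild type spermatids and 4 of 5 in knockout spermatids on their main probe sets, although *Sun2* (named after its values were seen) was not called in wild type with cyclic loess (−0.038) or equal medians (−0.098) and was called higher in knockout under both (0.42 and 0.38). *Terb2* and *Majin*, subunits of the complex that holds telomeres at the envelope, were 13.5-fold and 12.3-fold lower in wild type spermatids. Of the 10 measured genes of synapsis and the axis, 6 were lower and 2 higher in wild type spermatids. *Six6os1*, a partner of SYCE1 in the central element, was 11.7-fold lower, with signals of 57.0 and 56.5 in wild type spermatids and 555 and 798 in wild type spermatocytes, whereas *Tex15*, needed for meiotic break repair, was 23.3-fold higher.

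Among the 10 cohesin core and loading genes, 5 were higher and 4 lower in wild type spermatids. The general cohesin subunits *Stag2*, *Rad21* and *Smc3*, the counterparts of meiotic STAG3 and REC8 and the shared partner of SMC1B, were about 34.8-fold, 12.3-fold and 11.4-fold higher on their main probe sets. *Stag2* had signals of 876 and 724 in wild type spermatids and 25.9 and 20.3 in wild type spermatocytes, low signals of which the part of array background was not tested. *Stag1*, another general counterpart of STAG3, was lower (−1.90, adjusted p = 2.33e-06, with −0.0073 to −3.60 on its other probe sets), and *Smc1a*, the general counterpart of SMC1B, gave 0.39 (adjusted p = 0.0610), both named after their values were seen. The values of the higher genes differ between probe sets of the same gene, since the other 2 probe sets of *Rad21* were lower in wild type spermatids (log2 differences −1.54 and −2.01), the other probe set of *Smc3* gave 0.26 (adjusted p = 0.0820), and the other of *Stag2* gave 0.68. *Sgol2*, which shields centromeric cohesin from cleavage, was 14.7-fold lower. Of 22 genes of this list with several probe sets, 12 had a probe set with another call than the main one in this comparison and 4 were called in both directions (*Rad21*, *Nipbl*, *Wapl* and *Sun1*, with *Nipbl* and *Wapl* chosen after their values were seen).

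**Figure D4:**
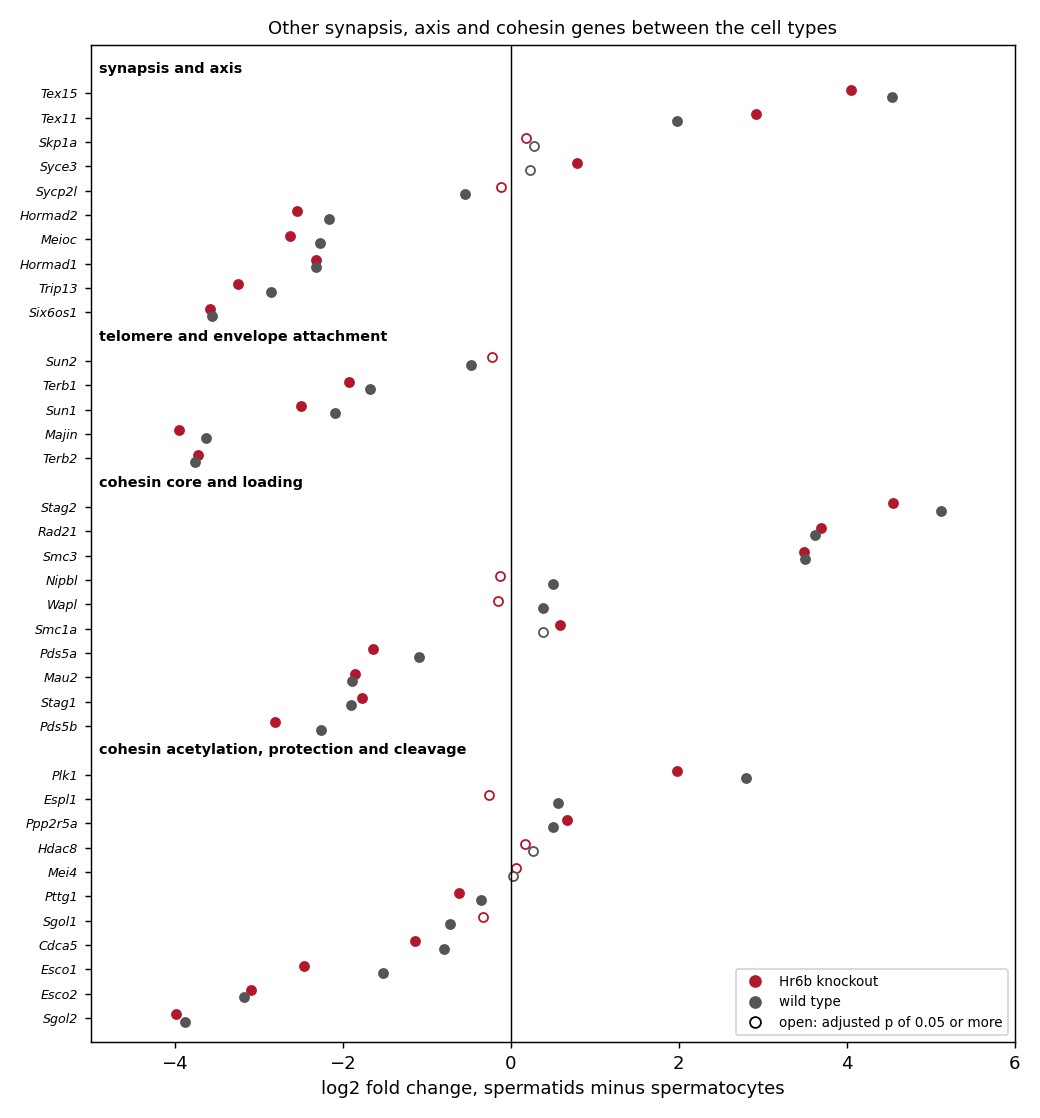
Log2 fold change, spermatids minus spermatocytes, of the 36 measured genes of the axis, synapsis and cohesin outside the members, on their main probe sets, in *Hr6b* knockout and wild type, where open points were not called. All telomere attachment genes lie left of 0 on the deposited scale, although *Sun2* was above 0 in knockout with cyclic loess or equal medians, and the cohesin core genes spread from *Pds5b* at −2.26 to *Stag2* at 5.12 in wild type.

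In knockout spermatids 5 of the 36 genes were lower and 1 was higher than in wild type spermatids on the main probe sets, against the 9.63% and 4.83% of all probe sets and 26.9% of the expressed ones called in either direction. Of the 22 genes with several probe sets, 9 had a probe set with another call here, among them *Nipbl* (4 of its 5 called lower, −0.39 to −0.79), *Smc3* (0.46, higher) and *Stag2* (−0.62, lower), which were picked after their values were seen. *Espl1*, the gene of separase, which cuts cohesin, had signals of 1885 and 1848 in knockout spermatids and 3481 and 3587 in wild type spermatids, a log2 difference of −0.92 (95% interval −1.18 to −0.66, adjusted p = 0.00111). *Esco1*, a cohesin acetyltransferase, had 307 and 366 in knockout spermatids and 638 and 521 in wild type spermatids, a log2 difference of −0.78 (adjusted p = 0.00736), while its other probe set gave −0.29 (adjusted p = 0.542). The knockout effect on both differed between the cell types, by −0.82 for *Espl1* (adjusted p = 0.0269) and −0.94 for *Esco1* (adjusted p = 0.0377), the only calls of the list in the interaction term. *Sun1* (−0.55), *Tex15* (−0.51) and *Mau2* (−0.50) were lower as well and *Rad21* was higher (0.48), while the other probe set of *Sun1* gave −0.018 those of *Rad21* gave −0.49 (adjusted p = 0.0716) and −0.034, and those of *Mau2* gave −0.54 to 0.15 with none called. With equal medians of the expressed autosomal probe sets, *Espl1*, *Esco1* and *Rad21* kept their calls (adjusted p = 0.00554, 0.0194 and 0.00591), and *Sun1*, *Tex15*, *Mau2* and both interaction calls lost theirs. The same setting called *Syce3* (0.42, adjusted p = 0.0329) and *Ppp2r5a* (0.48, adjusted p = 0.0206) higher, which makes 3 higher and 2 lower, and called *Syce3* and *Tex11* higher in the interaction (0.79 and 1.17, adjusted p = 0.0277 and 0.0258), genes that were picked after their values were seen. In knockout spermatocytes 0 of the 36 genes were called by limma and 8 had an unadjusted p under 0.05, against 11% of all probe sets, and with equal medians 1 gene was called lower (*Tex11*, −0.92, adjusted p = 0.0276). *Tex11* had signals of only 12.6 to 15.7 in knockout and 24.3 to 28.0 in wild type spermatocytes, which also enter its interaction call. *Ppp2r5a* had 37.2 to 45.1 in knockout and 33.0 to 34.8 in wild type spermatids. How much of these low signals is array background was not tested.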

How the data were processed

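Gene expression was measured in 4 groups of 2 arrays each, *Hr6b* knockout and wild type round spermatids and late spermatocytes. The authors deposited log2 values per probe set, made from the scanner files by RMA (background correction, quantile normalisation and summary over probes) as their methods and the processing notes state, so the arrays were forced to one distribution before deposit and a general shift in RNA content cannot be read from them. The number of arrays limits the precision, and no counting depth applies.

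The deposited log2 values were used as they are. The 64 control probe sets were left out, and of the 45037 tested, 34945 carried 1 gene in the platform annotation, 932 several and 9160 none. Of those with 1 gene, 34741 matched a RefSeq gene, and none with several genes was used by name. A mean per group was fitted over all 8 arrays with limma 3.58.1 (R 4.3.3; lmFit and eBayes, 4 residual and 5.85 prior degrees of freedom), which pools the spread over the groups, and 5 contrasts were tested two-sided with Benjamini-Hochberg adjustment over all probe sets. An exact permutation test of 2 against 2 arrays cannot go below p = 0.333 and was not used. Intervals are 95% intervals of the moderated test. The expressed probe sets had a signal of 100 or more on at least 4 arrays (17597 in all). The script was tested on simulated data. Figures were drawn with matplotlib 3.10.9 in Python 3.11.15.

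The members and gene lists were chosen with earlier results of these data known. All members are named. From each other list at most 8 genes called in a comparison with the largest change are named, on the probe set with the highest mean, as are the targeted gene and the 5 genes most like the members in pattern. Marker genes are named as examples chosen after their values were seen. The other settings tried were leaving out each array, the replicate number as a block, cyclic loess, equal medians of expressed autosomal probe sets, the signal filter, a prior with trend and robust, and a fit of only the 4 arrays compared.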

Additional observations from a re-analysis of the deposited data

How the results depend on the processing

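The calls of *Rec8*, *Syce2*, *Tex12*, *Sycp2* and *Sycp3* between the cell types held in both genotypes under every setting tried. In knockout spermatids the number of members called was 1 with cyclic loess, 1 with equal medians and 1 with the signal filter (*Syce2* each time), and 3 with a trend and robust prior (*Syce2*, *Syce1* and *Stag3*), which also called 1 member in the interaction term (*Syce1*, adjusted p = 0.0308). Over all probe sets, equal medians gave 10733 calls for knockout against wild type spermatids (main setting 6514, 66.6% of them lower, against 21.1% lower with equal medians and 50.02% with cyclic loess) and 36945 for wild type spermatids against spermatocytes (main setting 24016, 51.2% lower, against 25.3%). The signal filter, which tests fewer probe sets, gave 14898 and 15303 calls between the cell types in wild type and knockout. Interaction calls numbered 2073 in the main setting, 1197 with cyclic loess and 3325 with the trend and robust prior, and a fit of only the 4 arrays compared called 80 probe sets between the genotypes in spermatocytes, against 717.

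Directions that turned were all of members that were not called in the main setting, except *Syce1* between the cell types in knockout. The calls of *Stag3* between the cell types were lost with equal medians (−0.20 in wild type and −0.19 in knockout), and that of *Syce1* in knockout with cyclic loess (−0.19). With cyclic loess the log2 difference of knockout spermatids from wild type spermatids was 0.056 for *Sycp2* and 0.053 for *Smc1b*, that between the cell types was 0.12 (wild type) and 0.17 (knockout) for *Sycp1* and 0.39 (knockout, called) for *Smc1b*, and the interaction was 0.0090 for *Sycp3*, 0.053 for *Sycp1* and 0.020 for *Stag3*. With equal medians the same values were 0.037 for *Sycp2* and 0.029 for *Smc1b* in spermatids, 0.26 and 0.30 for *Sycp1*, 0.16 and 0.070 for *Syce1* and 0.46 (knockout) for *Smc1b* between the cell types, and 0.039 for *Sycp1* and 0.013 for *Stag3* in the interaction. The cause was not tested beyond the change of scale.

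Leaving out 1 array at a time gave 2588 to 7268 calls between the genotypes in spermatids, 119 to 999 in spermatocytes and 228 to 2197 in the interaction, where 0 to 1 members were called (*Rec8*, without wild type spermatocyte replicate 1, range of its value −0.91 to −0.47). Counts moved by over 1.5 times without any 1 of the 4 spermatid arrays for spermatids, without either knockout spermatocyte array for spermatocytes, and without any of these 6 arrays for the interaction. The lowest counts came without knockout spermatid replicate 1 in spermatids and without knockout spermatocyte replicate 1 in the other 2, when *Sycp1* was also called lower in knockout spermatids than in spermatocytes (range −0.56 to −0.052). Small knockout differences in spermatocytes changed sign, at −0.080 to 0.15 for *Syce2*, −0.32 to 0.19 for *Sycp1*, −0.26 to 0.062 for *Sycp3* and −0.30 to 0.14 for *Tex12*, as did *Sycp1* between the cell types in wild type (−0.36 to 0.14) and in the interaction (−0.45 to 0.059).

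Same-numbered arrays of 2 groups did not deviate together (correlations of deviations −0.13 to 0.14), so the numbers were not taken as pairs. With the replicate block 6090, 686 and 1725 probe sets were called for knockout spermatids, knockout spermatocytes and the interaction, and no member changed its call, and a block with the numbers of the wild type spermatids crossed, added after the data were seen, gave 6892, 781 and 2396. The mean over all probe sets of a member could not be run as a separate setting because each measured member has 1 probe set.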
